A study of Homo sapiens with 9 samples.

Results

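The 56 genes described here act in G2 phase and in mitosis. They encode the cyclins and kinases that start mitosis, the spindle checkpoint, the kinetochore, motors and other spindle proteins, the cytokinesis machinery, proteins that shape mitotic chromosomes, and the transcription factors FOXM1 and B-MYB (MYBL2). The genes were chosen by symbol from a list of mitotic and G2/M genes by a rule that uses no measured value, though with earlier results of these data known, and all 56 of them are among the 11350 genes of the counts table. By role, 7 act at entry into mitosis, 4 are mitotic kinases, 3 are partners in the chromosomal passenger complex, 9 belong to the spindle checkpoint and the anaphase promoting complex, 6 to the kinetochore, 7 are kinesin motors, 8 bind spindle microtubules, 3 act in cytokinesis, 7 shape chromosomes and 2 are transcription factors.

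RNA-seq was performed in 3 lines of HCT116, a human colon carcinoma cell line, with 3 libraries of each. HUWE1-P cells are parental. In HUWE1-WT and HUWE1-CS cells, CRISPR cutting with a repair template exchanged the end of the endogenous gene of the HECT-type ubiquitin ligase HUWE1. The template put back the catalytic cysteine in HUWE1-WT cells and placed a serine there in HUWE1-CS cells, and it added a blasticidin resistance gene behind a P2A site, so that both edited lines share this cassette and the puromycin and blasticidin selection, and HUWE1-P cells do not. Edited lines were grown from single cells, and the sources used here do not say which clones were sequenced or how many. A difference between HUWE1-CS and the control lines therefore cannot be told apart from a difference between clones. All cells were untreated, and poly(A) RNA was sequenced. The study calls the libraries of a line biological replicates without saying that they came from separate clones, so that the p-values measure the spread between these libraries.

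Cyclin B with CDK1 drives entry into mitosis, WEE1 holds CDK1 inactive until then, and the CDC25 phosphatases release it. Most genes of this set are transcribed late in the cell cycle. Their promoters often hold a short element, the cell cycle genes homology region (CHR), to which the MuvB complex binds, either within the repressor complex DREAM in resting cells or together with B-MYB and FOXM1 in dividing cells. The CDK inhibitor p21, the product of CDKN1A, favours the repressor form. In proliferating tumour lines such as HCT116 these mRNAs are abundant, and Ki-67, the product of MKI67, is the usual marker of cycling cells.

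The libraries held between 1610984 and 2060349 counts. In a single library the members had between 15 counts (CDC25C) and 1304 counts (MKI67), and all 56 had at least 10 counts in every library, so that counting error weighs most on CDC25C, CENPA and the smaller kinetochore genes. Values below are TMM-normalized CPM, the counts scaled to the size of the library, log2 fold changes are those of edgeR's quasi-likelihood fit over all genes and 9 libraries with their SE, and a gene is called at an adjusted p of at most 0.01. HUWE1 stood at 561, 545 and 522 CPM in HUWE1-P, 498, 453 and 455 in HUWE1-WT and 345, 323 and 339 in HUWE1-CS libraries. The log2 fold change of HUWE1 was -0.21 ± 0.06 (adjusted p = 0.353) in HUWE1-WT and -0.69 ± 0.06 (adjusted p = 1.06e-15) in HUWE1-CS against HUWE1-P cells, but counts per gene do not show a single codon and cannot check the edit. Of the colon epithelial markers, 6 of 11 are in the table (KRT8, KRT18, CDX2, CDH1, KRT19 and EPCAM), with a summed level of 4115 to 4240 CPM in HUWE1-P, 4137 to 4533 in HUWE1-WT and 3670 to 4044 in HUWE1-CS libraries. In both comparisons of HUWE1-CS cells, KRT8 and KRT18 were called lower and CDH1 and EPCAM higher. The shares of all genes called lower and higher were 8.58% and 8.46% against HUWE1-P and 8.08% and 7.42% against HUWE1-WT cells. With only 6 markers, these counts are not read as a result. The median log2 fold change of the 6 was 0.22 against HUWE1-P and 0.13 against HUWE1-WT cells. No blood (0 of 6) or endothelial (0 of 4) marker is listed, and 1 of 6 fibroblast markers is, COL1A1. COL1A1 had 19.2 to 24.7 CPM in HUWE1-P, 18.0 to 25.6 in HUWE1-WT and 8.71 to 14.8 in HUWE1-CS libraries, and was called lower in HUWE1-CS cells, by -0.96 ± 0.24, adjusted p = 0.000901 against HUWE1-P and -0.88 ± 0.24, adjusted p = 0.00346 against HUWE1-WT cells. The part of these markers in the values of the 56 genes was not tested.

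In HUWE1-CS cells, 12 of the 56 genes were lower than in HUWE1-P cells and none was higher. Over all 11350 genes, 8.58% were called lower in this comparison and 8.46% higher, so that 12 genes, or 21.4%, lie above the share called lower over the table, and 0 lies below the share called higher. The genes that fell were ASPM, MKI67, SMC2, KIF18A, MYBL2, ANLN, CDC25B, ESPL1, CCNA2, SMC4, CENPF and STMN1. The median log2 fold change of the 56 genes was -0.18, against -0.01 over all genes. Of the 56 genes, 45 (80.4%) were below 0 and 11 above, where 50.9% of all genes were below 0. Against HUWE1-WT cells, 13 genes were lower and none was higher, where 8.08% of all genes were called lower and 7.42% higher. These 13 were CENPA, ASPM, ANLN, MKI67, NDC80, MYBL2, KIF18A, CDC25B, SMC2, CCNA2, PLK1, TPX2 and SMC4. The median of the 56 genes was -0.20, against -0.0006 over all genes. Both comparisons use the same HUWE1-CS libraries and are not independent of each other. In a bulk sample, fewer cells in G2 and mitosis and less of these mRNAs per cell cannot be told apart.

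Between the control lines, HUWE1-WT against HUWE1-P, 0 of the 56 genes were called by edgeR, where 0.0617% of all genes were. DESeq2 and limma-voom also called 0 of them, 2 genes (MKI67 and ANLN) had an unadjusted p under 0.05, and the median was 0.03. The 56 genes together took 0.912% to 0.925% of all counts in the 6 control libraries and 0.767%, 0.795% and 0.822% in those of HUWE1-CS. Their summed level was 9196, 9072 and 9055 CPM in HUWE1-P, 9041, 9136 and 9230 CPM in HUWE1-WT and 7977, 7846 and 8297 CPM in HUWE1-CS libraries. Every HUWE1-CS library was below every control library in this sum, also without MKI67, the member with the most counts, where the control libraries held 8379 to 8647 CPM and the HUWE1-CS libraries 7483 to 7834 CPM.

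**Figure D1:**
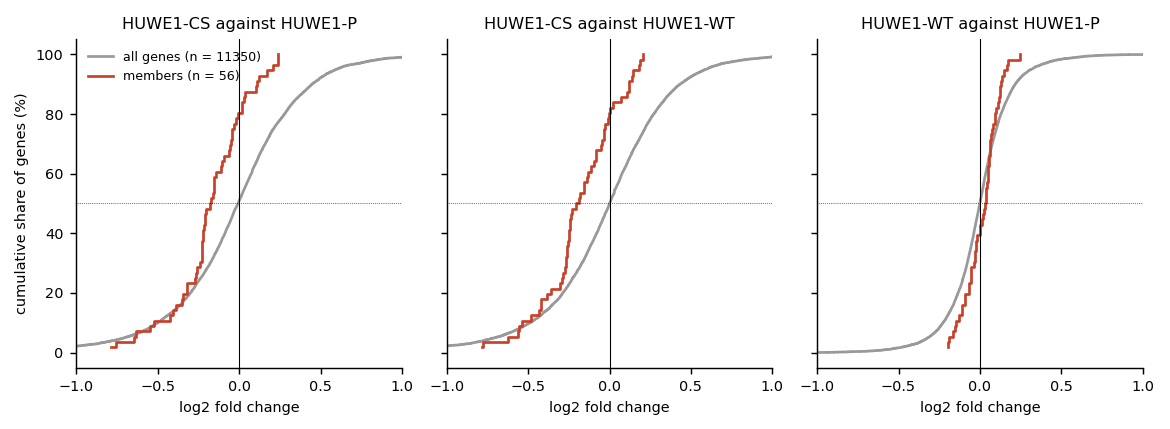
Cumulative share of genes (y axis, percent) by log2 fold change (x axis) for all 11350 genes (grey) and the 56 mitotic and G2/M genes (red) in the 3 comparisons. Around 0 the red curve runs to the left of the grey curve in both comparisons of HUWE1-CS cells. In each, 45 of 56 genes are below 0, beside 50.9% of all genes against HUWE1-P and 50.0% against HUWE1-WT cells. In HUWE1-WT against HUWE1-P cells the median of the 56 genes is 0.03.

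Gene by gene, the 3 HUWE1-CS libraries were all below the 6 control libraries for 21 of the 56 genes, where this held for 13.4% of all genes. They were all above the controls for 3 genes, TOP2A, CDK1 and HMMR, where this held for 12.9% of all genes. For the other 32 genes the HUWE1-CS and control libraries overlapped. The 21 genes are 37.5% of the set, and the 3 genes are 5.36%, which is below the share over all genes. None of these 3 was called. CCNA2, CCNB1 and CDK1, whose products are partners in cyclin-CDK complexes, had unlike values.

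**Figure D2:**
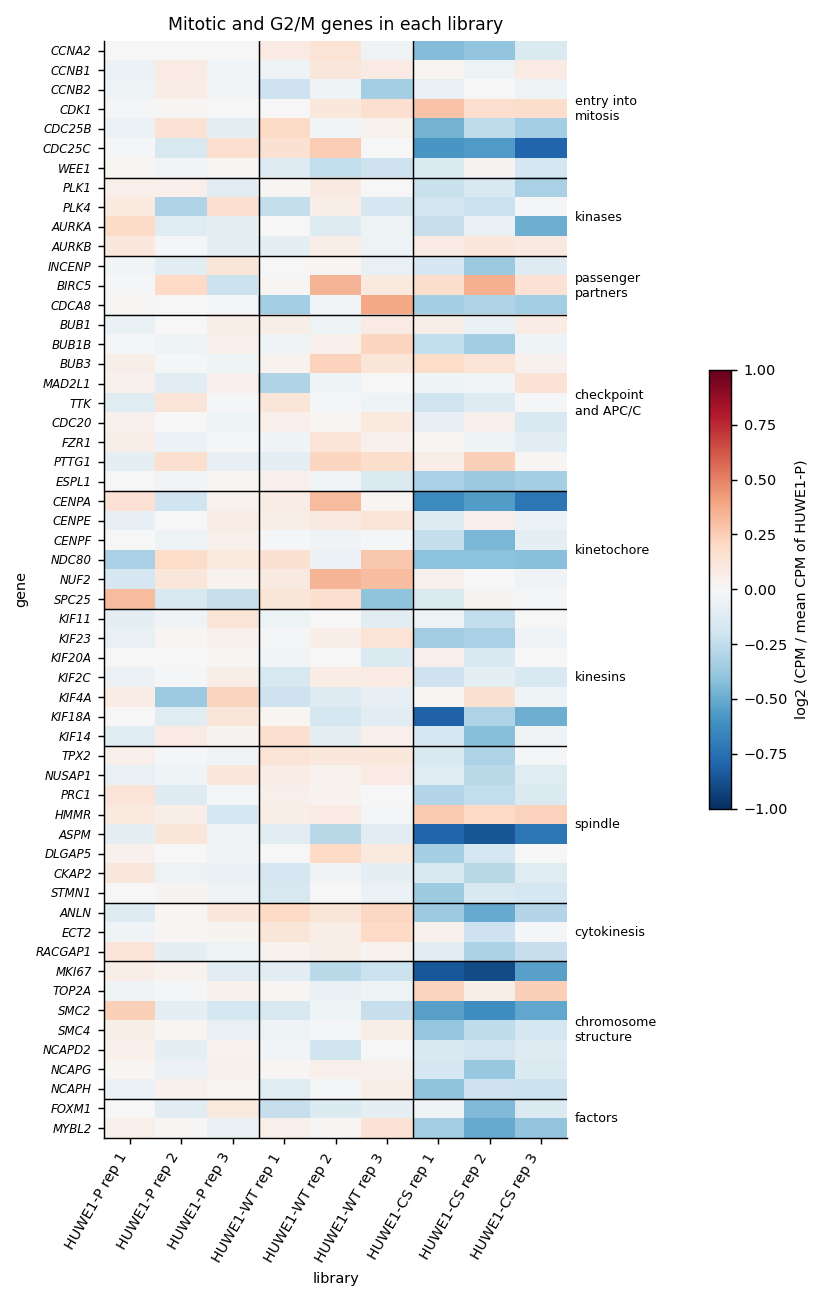
Level of each of the 56 genes (rows, grouped by role) in each of the 9 libraries (columns) as log2 of CPM over the mean of the 3 HUWE1-P libraries, from blue (lower) to red (higher). ASPM, MKI67, SMC2 and MYBL2 are blue in all 3 HUWE1-CS libraries, and TOP2A, CDK1 and HMMR are red in all 3.

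Promoter sequences are shown for called genes with the smallest p-values against HUWE1-P cells, MKI67, ASPM, MYBL2 and ANLN, and for CCNB1, which was not called, because genes of this set are known to share promoter elements. They were taken from RefSeq on GRCh38.p14, where 48 of the 56 genes have an entry, and each line gives the 150 bases before the transcription start, 5′ to 3′ on the strand of the gene. Capitals mark TTTGAA or TTTAAA, the usual forms of the CHR, and CCAAT, the box bound by NF-Y, each on either strand, so that TTCAAA and ATTGG are the same motifs read on the other strand. Overlapping matches are written as a single run.
MKI67, chr10:128126424-128126573, minus strand: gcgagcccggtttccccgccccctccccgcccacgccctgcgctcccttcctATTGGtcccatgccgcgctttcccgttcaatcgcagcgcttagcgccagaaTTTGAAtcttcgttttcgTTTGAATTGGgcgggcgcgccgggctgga
ASPM, chr1:197146670-197146819, minus strand: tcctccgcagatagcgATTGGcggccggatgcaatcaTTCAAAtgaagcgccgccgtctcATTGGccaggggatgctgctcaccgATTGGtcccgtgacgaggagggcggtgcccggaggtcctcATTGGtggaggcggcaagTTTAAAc
MYBL2, chr20:43666964-43667113, plus strand: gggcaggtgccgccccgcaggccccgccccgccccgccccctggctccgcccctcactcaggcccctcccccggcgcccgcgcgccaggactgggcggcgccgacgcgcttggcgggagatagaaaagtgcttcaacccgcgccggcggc
ANLN, chr7:36389712-36389861, plus strand: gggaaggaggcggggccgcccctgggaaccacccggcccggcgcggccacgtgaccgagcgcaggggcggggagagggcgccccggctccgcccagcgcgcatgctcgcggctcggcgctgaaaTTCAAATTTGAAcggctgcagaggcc
CCNB1, chr5:69167000-69167149, plus strand: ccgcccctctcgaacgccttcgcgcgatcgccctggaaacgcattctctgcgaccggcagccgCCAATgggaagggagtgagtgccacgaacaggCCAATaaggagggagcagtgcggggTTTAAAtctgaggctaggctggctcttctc
In MKI67, TTTGAA begins 47 and 29 bases before the start, and the second overlaps a CCAAT box on the other strand by 1 base. ASPM has TTTGAA on the other strand 113 bases and TTTAAA 7 bases before the start, with 4 CCAAT boxes between 134 and 25 bases. ANLN has TTTGAA on both strands side by side, 26 and 20 bases before the start, and no CCAAT. CCNB1 has TTTAAA 30 bases before the start and CCAAT boxes 87 and 55 bases before it. MYBL2 has neither motif in the bases shown.

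In the full windows of 250 bases before to 50 bases after the start, 42 of the 48 genes (87.5%) had TTTGAA or TTTAAA in at least 1 window, against 20.2% of 9041 genes of the table with an entry. Counted by window, since some genes have several, the shares were 70.8% of 65 windows and 24.0% of all 35116 windows. TTTGAA was found in 35 of the 48 genes (72.9%, against 12.9% of the genes of the table), TTTAAA in 16 (33.3%, against 10.1%) and CCAAT in 36 (75%, against 43.6%). Relative to HUWE1-P cells, the median log2 fold change was -0.19 for the 42 genes with TTTGAA or TTTAAA and -0.20 for the 6 without, and against HUWE1-WT cells it was -0.24 and -0.12. CCNB1, MKI67 and ASPM, whose promoters all have both motifs, stood at 0.02, -0.75 and -0.79 against HUWE1-P cells. A match of these letters is a description of the sequence and not a bound site.

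Over all genes, 8.58% were called lower against HUWE1-P and 8.08% against HUWE1-WT cells. With so few genes in each role, the counts by role, here and below, are not read as a result about a role. At entry into mitosis, 2 of 7 genes fell in both comparisons, CCNA2 and CDC25B. CCNA2 encodes cyclin A2, which acts with CDK2 in S phase and with CDK1 in G2. The level of CCNA2 was 177, 178 and 178 CPM in HUWE1-P, 188, 195 and 173 in HUWE1-WT and 131, 135 and 161 in HUWE1-CS libraries. All 3 HUWE1-CS libraries were below all controls, and the log2 fold change was -0.32 ± 0.08 (adjusted p = 0.00211) against HUWE1-P and -0.38 ± 0.08 (adjusted p = 0.000212) against HUWE1-WT cells. Omission of HUWE1-P replicate 3 or HUWE1-CS replicate 1 or 2 ended the call of CCNA2 against HUWE1-P cells, at -0.32 to -0.26 (adjusted p of 0.0104 to 0.0318). CDC25B encodes the phosphatase that first activates cyclin B-CDK1 at the centrosome. CDC25B measured 268, 308 and 261 CPM in HUWE1-P, 318, 274 and 287 in HUWE1-WT and 201, 234 and 220.0 in HUWE1-CS libraries. The groups did not overlap, and CDC25B fell by 21.7% against HUWE1-P cells, with log2 fold changes of -0.35 ± 0.07 (adjusted p = 0.000117) against HUWE1-P and -0.42 ± 0.07 (adjusted p = 4.09e-06) against HUWE1-WT cells.

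Neither gene of the cyclin B1-CDK1 pair was called. For CCNB1, the libraries held 312, 344 and 319 CPM in HUWE1-P, 315, 351 and 344 in HUWE1-WT and 329, 313 and 344 in HUWE1-CS libraries. The groups overlapped throughout for CCNB1, which encodes cyclin B1, and the log2 fold change was 0.02 (95% confidence interval -0.12 to 0.15) against HUWE1-P cells and -0.03 (95% confidence interval -0.17 to 0.10) against HUWE1-WT cells. CDK1 had values of 171, 175 and 174 CPM in HUWE1-P, 174, 186 and 195 in HUWE1-WT and 212, 195 and 196 in HUWE1-CS libraries. All HUWE1-CS libraries were above all controls, 2 of them narrowly so, with log2 fold changes of 0.21 ± 0.08 (adjusted p = 0.0358) against HUWE1-P cells and 0.12 ± 0.08 (adjusted p = 0.286) against HUWE1-WT cells, and CDK1, the kinase of the pair, was not called. WEE1 was at 94.3, 91.5 and 94.0 CPM in HUWE1-P, 85.2, 78.5 and 80.8 in HUWE1-WT and 84.9, 95.3 and 82.5 in HUWE1-CS libraries. The lines overlapped for WEE1, the kinase that inhibits CDK1, with log2 fold changes of -0.09 ± 0.10 (adjusted p = 0.573) against HUWE1-P and 0.10 ± 0.11 (adjusted p = 0.521) against HUWE1-WT cells. CCNB2, the second mitotic cyclin B, stood at -0.04 ± 0.10 (adjusted p = 0.801) against HUWE1-P cells. CDC25C, the other phosphatase of this group, had the fewest counts of the set, with means of 15.1 ± 1.70 CPM in HUWE1-P, 16.6 ± 1.45 in HUWE1-WT and 9.67 ± 0.833 in HUWE1-CS cells (SD, n = 3), and its differences of -0.65 ± 0.26 (adjusted p = 0.0595) against HUWE1-P and -0.78 ± 0.26 (adjusted p = 0.0191) against HUWE1-WT cells did not pass.

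Among the 4 mitotic kinases, 1 fell, PLK1, against HUWE1-WT cells. Polo-like kinase 1 acts on centrosomes, kinetochores and cytokinesis. PLK1 stood at 235, 234 and 210.1 CPM in HUWE1-P, 228, 241 and 227 in HUWE1-WT and 194, 204 and 181 in HUWE1-CS libraries. All HUWE1-CS libraries were below the controls, with log2 fold changes of -0.23 ± 0.08 (adjusted p = 0.0185) against HUWE1-P and -0.27 ± 0.08 (adjusted p = 0.0048) against HUWE1-WT cells. Omission of HUWE1-WT replicate 2 or 3 or HUWE1-CS replicate 1 or 3 ended the call of PLK1 against HUWE1-WT cells, at -0.28 to -0.22 (adjusted p of 0.012 to 0.0523). The other kinases were not called, with values against HUWE1-P cells of -0.24 ± 0.10 (adjusted p = 0.0745) for AURKA, which builds the spindle poles, 0.10 ± 0.10 (adjusted p = 0.482) for AURKB, the kinase of the passenger complex, and -0.14 ± 0.13 (adjusted p = 0.478) for PLK4, the kinase of centriole duplication.

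None of the 3 passenger complex partners was called. The smallest p belonged to CDCA8, which encodes borealin, a subunit that targets AURKB to the centromere. The level of CDCA8 was 86.3, 85.9 and 85.3 CPM in HUWE1-P, 67.8, 84.0 and 112 in HUWE1-WT and 68.2, 69.8 and 67.9 in HUWE1-CS libraries. The HUWE1-WT libraries ranged widely, HUWE1-WT replicate 1 was at the level of the HUWE1-CS libraries, and the log2 fold changes were -0.32 ± 0.12 (adjusted p = 0.0341) against HUWE1-P and -0.36 ± 0.12 (adjusted p = 0.0188) against HUWE1-WT cells. The scaffold INCENP stood at -0.23 ± 0.10 (adjusted p = 0.0734) and BIRC5, which encodes survivin, at 0.24 ± 0.12 (adjusted p = 0.15) against HUWE1-P cells, so that the members of this complex had values of either sign.

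In the spindle checkpoint and the anaphase promoting complex, 1 of 9 genes fell, ESPL1, which encodes separase, the protease that opens cohesin at anaphase. ESPL1 measured 121, 118 and 122 CPM in HUWE1-P, 125, 118 and 109 in HUWE1-WT and 96.1, 93.0 and 95.8 in HUWE1-CS libraries. The HUWE1-CS libraries lay close together and below all controls, with log2 fold changes of -0.35 ± 0.10 (adjusted p = 0.00382) against HUWE1-P and -0.31 ± 0.10 (adjusted p = 0.0132) against HUWE1-WT cells. Omission of HUWE1-P replicate 1 or 3 or HUWE1-CS replicate 1, 2 or 3 ended the call of ESPL1 against HUWE1-P cells, at -0.35 to -0.32 (adjusted p of 0.0115 to 0.0204). For FZR1, the libraries held 80.7, 74.1 and 76.6 CPM in HUWE1-P, 74.7, 84.5 and 79.7 in HUWE1-WT and 77.7, 74.9 and 71.4 in HUWE1-CS libraries. These levels overlapped for FZR1, the activator CDH1 of the anaphase promoting complex, with log2 fold changes of -0.04 ± 0.11 (adjusted p = 0.814) against HUWE1-P and -0.09 ± 0.11 (adjusted p = 0.586) against HUWE1-WT cells. The group had a median log2 fold change of -0.04 against HUWE1-P and -0.09 against HUWE1-WT cells. BUB1 stood at 0.02 (95% confidence interval -0.15 to 0.19), MAD2L1 at 0.03 (95% confidence interval -0.14 to 0.20) and CDC20, their target, at -0.06 (95% confidence interval -0.19 to 0.07) against HUWE1-P cells. BUB1B and TTK were at -0.21 ± 0.09 (adjusted p = 0.0849) and -0.11 ± 0.11 (adjusted p = 0.482), and BUB3 and PTTG1, which encodes securin, were at 0.12 ± 0.07 (adjusted p = 0.178) and 0.11 ± 0.11 (adjusted p = 0.509).

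In the kinetochore group, 1 of 6 genes was called against HUWE1-P cells (CENPF) and 2 against HUWE1-WT cells (CENPA and NDC80). CENPA is the histone H3 variant that marks centromeres. CENPA had values of 28.6, 22.4 and 26.5 CPM in HUWE1-P, 27.2, 32.2 and 26.2 in HUWE1-WT and 16.6, 17.6 and 15.7 in HUWE1-CS libraries. No HUWE1-CS library reached the lowest control, and the log2 fold changes were -0.63 ± 0.20 (adjusted p = 0.0131) against HUWE1-P and -0.78 ± 0.20 (adjusted p = 0.00164) against HUWE1-WT cells. Omission of HUWE1-WT replicate 2 or HUWE1-CS replicate 3 ended the call of CENPA against HUWE1-WT cells, at -0.73 to -0.67 (adjusted p of 0.0114 to 0.0225). NDC80 is a subunit of the complex that binds microtubules. NDC80 was at 40.4, 57.2 and 54.0 CPM in HUWE1-P, 56.2, 48.5 and 61.0 in HUWE1-WT and 38.0, 38.0 and 37.7 in HUWE1-CS libraries. The 3 HUWE1-CS values were nearly equal and the controls spread widely, with log2 fold changes of -0.43 ± 0.15 (adjusted p = 0.021) against HUWE1-P and -0.54 ± 0.14 (adjusted p = 0.00265) against HUWE1-WT cells. Omission of HUWE1-WT replicate 1 or 3 or HUWE1-CS replicate 1, 2 or 3 ended the call of NDC80 against HUWE1-WT cells, at -0.54 to -0.46 (adjusted p of 0.0102 to 0.0321). CENPF encodes a large protein of the outer kinetochore. CENPF stood at 261, 252 and 271 CPM in HUWE1-P, 259, 255 and 259 in HUWE1-WT and 221, 190.0 and 246 in HUWE1-CS libraries. HUWE1-CS replicate 3 was close to the lowest control and replicate 2 was lowest, with log2 fold changes of -0.26 ± 0.07 (adjusted p = 0.00574) against HUWE1-P and -0.24 ± 0.08 (adjusted p = 0.014) against HUWE1-WT cells. Omission of HUWE1-P replicate 1 or 3 or HUWE1-CS replicate 1 or 2 ended the call of CENPF against HUWE1-P cells, at -0.26 to -0.15 (adjusted p of 0.0168 to 0.144). NUF2 and SPC25, which form the same complex as NDC80, stood at -0.01 ± 0.15 (adjusted p = 0.986) and -0.02 ± 0.16 (adjusted p = 0.944) against HUWE1-P cells, and the motor CENPE at -0.05 ± 0.13 (adjusted p = 0.834).

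Of the 7 kinesins, 1 fell in both comparisons, KIF18A, the motor that limits chromosome movement at metaphase. The level of KIF18A was 82.5, 76.3 and 90.1 CPM in HUWE1-P, 84.0, 73.6 and 77.3 in HUWE1-WT and 47.5, 66.9 and 59.2 in HUWE1-CS libraries. The HUWE1-CS libraries were below all controls but spread more than those of either control line, and the log2 fold changes were -0.52 ± 0.12 (adjusted p = 0.000354) against HUWE1-P and -0.43 ± 0.12 (adjusted p = 0.00457) against HUWE1-WT cells. The call of KIF18A against HUWE1-P cells was lost without HUWE1-CS replicate 1, at -0.40 (adjusted p = 0.0173). Omission of HUWE1-WT replicate 1 or 3 or HUWE1-CS replicate 1 or 3 ended the call of KIF18A against HUWE1-WT cells, at -0.44 to -0.31 (adjusted p of 0.0125 to 0.0842). KIF23, a motor of the central spindle, stood at -0.23 ± 0.09 (adjusted p = 0.0476) against HUWE1-P and -0.29 ± 0.09 (adjusted p = 0.01005) against HUWE1-WT cells, just above the threshold in the second. KIF11, the motor that separates the spindle poles, KIF20A, KIF2C, KIF4A and KIF14 ranged from -0.21 (KIF14) to 0.04 (KIF4A) against HUWE1-P cells and were not called.

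Among the 8 spindle and microtubule proteins, ASPM fell in both comparisons, STMN1 against HUWE1-P cells and TPX2 against HUWE1-WT cells. ASPM, at chr1:197053251-197115824 in the hg19 build of the files, encodes a protein of the spindle poles, and had the lowest log2 fold change of the 56 genes against HUWE1-P cells. ASPM measured 91.2, 106 and 95.4 CPM in HUWE1-P, 90.4, 80.7 and 90.7 in HUWE1-WT and 56.4, 53.9 and 59.2 in HUWE1-CS libraries. The groups were well apart, and ASPM fell by 42.1% against HUWE1-P and fell by 35.2% against HUWE1-WT cells, with log2 fold changes of -0.79 ± 0.11 (adjusted p = 1.71e-08) against HUWE1-P and -0.63 ± 0.12 (adjusted p = 1.11e-05) against HUWE1-WT cells. STMN1 encodes stathmin, which destabilizes microtubules. Per kb of transcript, STMN1 at 249 CPM and CDC20 at 248 CPM had the highest levels of the set in HUWE1-P cells. CDC20 was above STMN1 in HUWE1-WT cells (258 against 237) and in HUWE1-CS cells (239 against 213). For STMN1, the libraries held 360.0, 367 and 351 CPM in HUWE1-P, 322, 358 and 346 in HUWE1-WT and 281, 323 and 319 in HUWE1-CS libraries. HUWE1-CS replicate 2 was slightly above HUWE1-WT replicate 1, so that the lines overlapped, and the log2 fold changes were -0.22 ± 0.07 (adjusted p = 0.0085) against HUWE1-P and -0.15 ± 0.07 (adjusted p = 0.0906) against HUWE1-WT cells. Omission of HUWE1-P replicate 1, 2 or 3, HUWE1-WT replicate 3 or HUWE1-CS replicate 1 or 3 ended the call of STMN1 against HUWE1-P cells, at -0.24 to -0.16 (adjusted p of 0.0114 to 0.113). TPX2 activates AURKA on spindle microtubules. TPX2 had values of 365, 349 and 344 CPM in HUWE1-P, 389, 379.5 and 380.3 in HUWE1-WT and 318, 285 and 348 in HUWE1-CS libraries. HUWE1-CS replicate 3 lay within the HUWE1-P libraries, and the log2 fold changes were -0.15 ± 0.07 (adjusted p = 0.0899) against HUWE1-P and -0.27 ± 0.07 (adjusted p = 0.00126) against HUWE1-WT cells. The call of TPX2 against HUWE1-WT cells was lost without HUWE1-CS replicate 2, at -0.19 (adjusted p = 0.0403). HMMR, which encodes a spindle protein that also binds hyaluronan, had means of 100.5 ± 9.91 CPM in HUWE1-P, 104 ± 3.76 in HUWE1-WT and 118 ± 2.67 in HUWE1-CS cells (SD, n = 3), all HUWE1-CS libraries above all controls and log2 fold changes of 0.24 ± 0.10 (adjusted p = 0.0584) against HUWE1-P and 0.18 ± 0.10 (adjusted p = 0.167) against HUWE1-WT cells, and was not called. The other genes of the group, NUSAP1, PRC1, DLGAP5 and CKAP2, were between -0.22 (PRC1) and -0.16 (DLGAP5) against HUWE1-P cells.

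In cytokinesis, ANLN fell in both comparisons. It encodes anillin, which links the contractile ring to the membrane. ANLN was at 215, 237 and 252 CPM in HUWE1-P, 269, 256 and 271 in HUWE1-WT and 182, 166 and 192 in HUWE1-CS libraries. The groups did not overlap, with log2 fold changes of -0.39 ± 0.08 (adjusted p = 3.31e-05) against HUWE1-P and -0.56 ± 0.08 (adjusted p = 3.57e-09) against HUWE1-WT cells. The HUWE1-WT mean was above the HUWE1-P mean by 0.17 ± 0.07 (adjusted p = 0.807), which was not called. ECT2 and RACGAP1, which activate and position the small GTPase RhoA at the cell equator, stood at -0.06 ± 0.08 (adjusted p = 0.654) and -0.21 ± 0.09 (adjusted p = 0.0642) against HUWE1-P cells.

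Of the 7 genes of chromosome structure, 3 fell in both comparisons: MKI67, SMC2 and SMC4. Ki-67 coats mitotic chromosomes and keeps them apart, and its gene lies at chr10:129894923-129924687 (hg19). MKI67 stood at 708, 693 and 628 CPM in HUWE1-P, 624, 562 and 584 in HUWE1-WT and 376, 363 and 463 in HUWE1-CS libraries. Every HUWE1-CS library was below every control, with HUWE1-CS replicate 3 the highest of the line. MKI67 fell by 40.7% against HUWE1-P and fell by 32.1% against HUWE1-WT cells, with log2 fold changes of -0.75 ± 0.07 (adjusted p = 6.11e-17) against HUWE1-P and -0.56 ± 0.07 (adjusted p = 7.42e-11) against HUWE1-WT cells. It was lower by -0.20 ± 0.06 (adjusted p = 0.56) in HUWE1-WT than in HUWE1-P cells, where its unadjusted p was 0.00314 and it was not called.

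SMC2 and SMC4 are the paired ATPase subunits of condensin, the ring that compacts mitotic chromosomes. The level of SMC2 was 99.9, 79.1 and 75.2 CPM in HUWE1-P, 75.9, 82.3 and 72.1 in HUWE1-WT and 58.2, 55.0 and 59.2 in HUWE1-CS libraries. The groups were apart although HUWE1-P replicate 1 stood above the other controls, and the log2 fold changes were -0.55 ± 0.12 (adjusted p = 0.000166) against HUWE1-P and -0.42 ± 0.12 (adjusted p = 0.00603) against HUWE1-WT cells. The call of SMC2 against HUWE1-P cells was lost without HUWE1-P replicate 1, at -0.42 (adjusted p = 0.0126). Omission of HUWE1-WT replicate 1 or 2 or HUWE1-CS replicate 1, 2 or 3 ended the call of SMC2 against HUWE1-WT cells, at -0.43 to -0.36 (adjusted p of 0.013 to 0.0482). SMC4 measured 260.1, 254 and 238 CPM in HUWE1-P, 242, 248 and 260.5 in HUWE1-WT and 191, 210.4 and 222 in HUWE1-CS libraries. These groups did not overlap either, with log2 fold changes of -0.27 ± 0.07 (adjusted p = 0.00394) against HUWE1-P and -0.27 ± 0.07 (adjusted p = 0.00427) against HUWE1-WT cells. Omission of HUWE1-P replicate 1 or 2 or HUWE1-CS replicate 1 ended the call of SMC4 against HUWE1-P cells, at -0.26 to -0.21 (adjusted p of 0.0174 to 0.0559). Omission of HUWE1-WT replicate 2 or 3 or HUWE1-CS replicate 1 ended the call of SMC4 against HUWE1-WT cells, at -0.27 to -0.21 (adjusted p of 0.0129 to 0.0591). The condensin I subunits NCAPD2, NCAPG and NCAPH were at -0.15 ± 0.07 (adjusted p = 0.0726), -0.23 ± 0.08 (adjusted p = 0.0294) and -0.27 ± 0.10 (adjusted p = 0.0314) against HUWE1-P cells and were not called. TOP2A encodes topoisomerase IIα, which untangles sister chromatids. Its means were 259 ± 7.25 CPM in HUWE1-P, 254 ± 7.29 in HUWE1-WT and 292 ± 19.6 in HUWE1-CS cells (SD, n = 3), with all HUWE1-CS libraries above all controls, and its log2 fold changes of 0.17 ± 0.07 (adjusted p = 0.0596) against HUWE1-P and 0.20 ± 0.07 (adjusted p = 0.0241) against HUWE1-WT cells did not pass. Without HUWE1-CS replicate 2, TOP2A was called higher against HUWE1-WT cells, at 0.27 (adjusted p = 0.00467).

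Of the transcription factors, MYBL2 fell and FOXM1 was not called. For MYBL2, the libraries held 245, 237 and 226 CPM in HUWE1-P, 244, 238 and 260.5 in HUWE1-WT and 187, 166 and 179 in HUWE1-CS libraries. The HUWE1-CS libraries were below all controls for MYBL2, which fell by 24.6% against HUWE1-P and fell by 28.4% against HUWE1-WT cells, with log2 fold changes of -0.41 ± 0.08 (adjusted p = 1.16e-05) against HUWE1-P and -0.48 ± 0.08 (adjusted p = 2.87e-07) against HUWE1-WT cells. FOXM1 had values of 125, 116 and 133 CPM in HUWE1-P, 106, 113 and 116 in HUWE1-WT and 121, 91.9 and 113 in HUWE1-CS libraries. For FOXM1 the lines overlapped, with HUWE1-CS replicate 2 the lowest library and replicate 1 among the HUWE1-P values, and the log2 fold changes were -0.20 ± 0.10 (adjusted p = 0.113) against HUWE1-P and -0.05 ± 0.10 (adjusted p = 0.784) against HUWE1-WT cells.

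**Figure D3:**
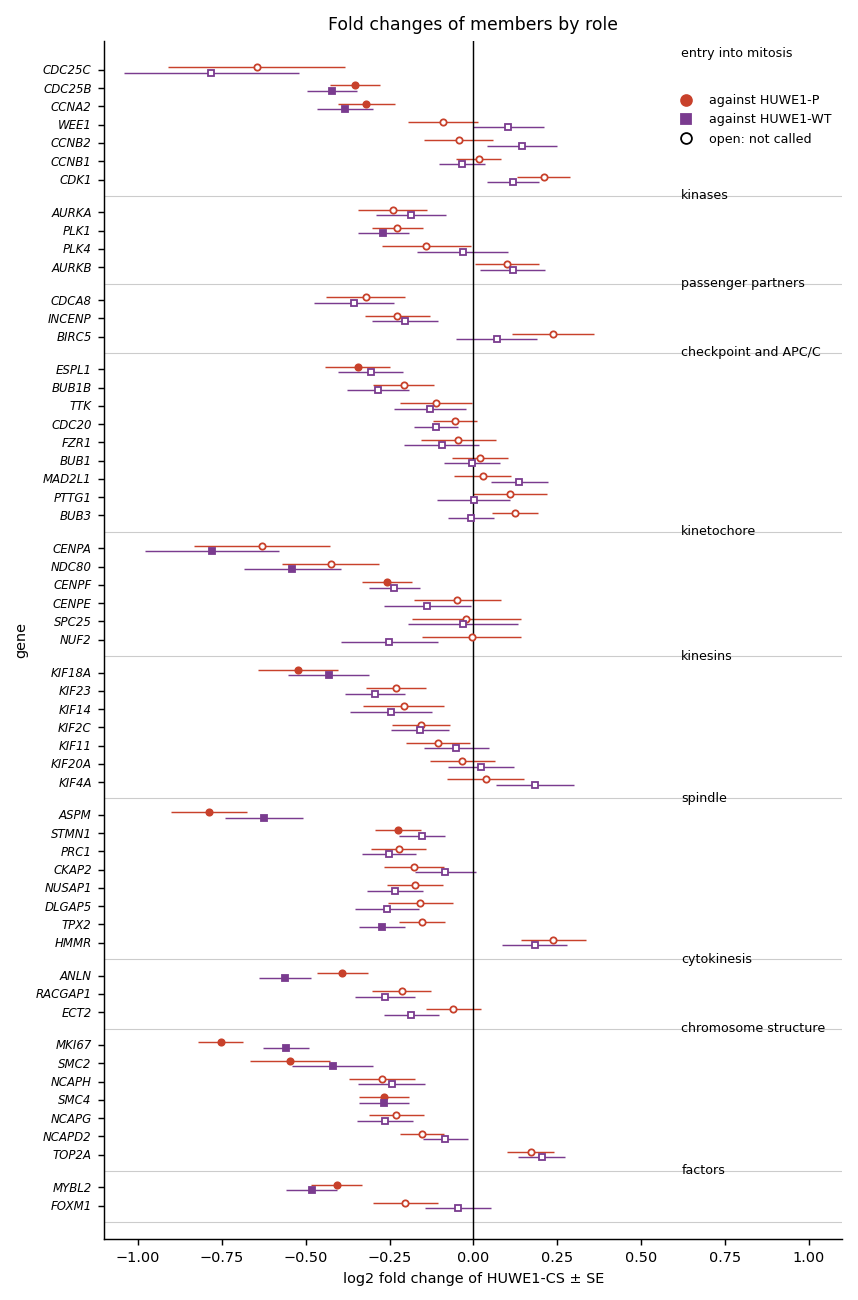
Log2 fold change ± SE (x axis) of each of the 56 genes (rows, grouped by role) in HUWE1-CS cells against HUWE1-P (red circles) and HUWE1-WT cells (purple squares), filled where called. All filled symbols lie left of 0, from -0.79 (ASPM against HUWE1-P) to -0.22 (STMN1 against HUWE1-P).

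The calls differed in how much they rested on single libraries and on the tool. Without HUWE1-CS replicate 1, 6 genes were called against HUWE1-P cells (CDC25B, ASPM, ANLN, MKI67, SMC2 and MYBL2) and 8 against HUWE1-WT cells (CCNA2, CDC25B, CENPA, TPX2, ASPM, ANLN, MKI67 and MYBL2), all lower, where 6.87% and 6.24% of all genes were called lower. MKI67, ASPM, ANLN, MYBL2 and CDC25B were called in both comparisons in each of 20 alternative fits that changed the normalization, the model, the tool, the samples or the filter, at an adjusted p of at most 0.01. In these fits MKI67 was between -0.86 and -0.58 against HUWE1-P cells and ASPM between -0.83 and -0.63. DESeq2 called 7 genes in each comparison, all lower, where it called 4.63% of all genes lower against HUWE1-P and 4.37% against HUWE1-WT cells. It ended the calls of CCNA2, ESPL1, CENPF, STMN1 and SMC4 against HUWE1-P cells, with adjusted p of 0.0238 (CCNA2) to 0.0468 (CENPF). Against HUWE1-WT cells it ended those of PLK1, CENPA, NDC80, KIF18A, SMC2 and SMC4, with adjusted p of 0.0237 (CENPA) to 0.0522 (SMC2). With RLE size factors STMN1 lost its call against HUWE1-P cells, at -0.22 (adjusted p = 0.0108).

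Log2 fold changes were also related to transcript length over the whole table. Spearman's rho of the log2 fold change with the length of the canonical transcript was -0.262 over 11003 genes for HUWE1-CS relative to HUWE1-P and -0.199 relative to HUWE1-WT, given as a description since genes are not independent replicates. Over the 56 genes rho was -0.177 and -0.101. Between the control lines, HUWE1-WT against HUWE1-P, rho was -0.155 over all genes and -0.328 over the 56 genes, so a relation to length is not particular to HUWE1-CS cells. The 458 genes with transcripts of 10 kb or more include MKI67, ASPM and CENPF. Their median log2 fold change was -0.17 in HUWE1-CS against HUWE1-P and -0.07 against HUWE1-WT cells, and -0.08 between the control lines. When a smooth trend of counts with length was removed from each library, 12 of the 56 genes were lower and 2 higher against HUWE1-P cells, and 12 were lower and 1 higher against HUWE1-WT cells. Over all genes this fit called 8.44% lower and 8.14% higher in the first comparison and 8.15% and 7.45% in the second. MKI67 remained called at -0.58 (adjusted p = 2.4e-14) against HUWE1-P and -0.47 (adjusted p = 2.35e-10) against HUWE1-WT cells, and so did ASPM at -0.63 (adjusted p = 3.95e-06) and -0.54 (adjusted p = 0.000132). CENPF lost its call, at -0.10 (adjusted p = 0.279) against HUWE1-P cells, as did ESPL1 and SMC4 there and SMC2 and SMC4 against HUWE1-WT cells. PLK1, CENPA and NDC80 became called as lower against HUWE1-P cells and STMN1 against HUWE1-WT cells. TOP2A became called as higher in both, at 0.25 (adjusted p = 0.00153) and 0.27 (adjusted p = 0.000722), and BUB3 against HUWE1-P cells, at 0.25 (adjusted p = 0.00195). Whether length or a linked property of these libraries contributes to the values was not tested further.

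Other genes of mitosis were counted in 6 further lists that hold no member of the set. Of 122 such genes, 14 (11.5%) were lower and 4 (3.28%) higher against HUWE1-P cells, with a median of -0.13, beside 8.58% and 8.46% of all genes. Against HUWE1-WT cells 22 (18.0%) were lower and 3 (2.46%) higher, with a median of -0.11, beside 8.08% and 7.42% of all genes. Among 36 other kinetochore genes 5 and 7 (13.9% and 19.4%) were lower in the respective comparisons and none was higher, led by CENPX (-0.52 ± 0.09, adjusted p = 3.22e-06 against HUWE1-P cells) and SKA2 (-0.76 ± 0.12, adjusted p = 6.61e-07 against HUWE1-WT cells). Among 33 other spindle, kinesin and centrosome genes 6 and 10 (18.2% and 30.3%) were lower and none higher, led by the spindle protein SPAG5 (-0.53 ± 0.10, adjusted p = 1.29e-05 against HUWE1-P cells) and the midbody protein CEP55 (-0.50 ± 0.10, adjusted p = 2.21e-05 against HUWE1-WT cells). Of 8 genes of condensin II and other mitotic chromosome proteins 1 and 2 (12.5% and 25%) were lower, led by NCAPH2 (-0.39 ± 0.10, adjusted p = 0.00221 and -0.42 ± 0.10, adjusted p = 0.00113). With 1 and 2 called genes, the counts of this list are not read as a result.

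In the lists of the anaphase promoting complex, of cohesin and of other genes of entry and exit, no more than 3 genes were called in a direction. With 8.58% of all genes lower and 8.46% higher against HUWE1-P cells, and 8.08% and 7.42% against HUWE1-WT cells, their counts are not read as a result. Of 17 subunits and partners of the anaphase promoting complex, 1 was lower and 3 were higher against HUWE1-P cells, and 1 and 2 against HUWE1-WT cells, with medians of 0.03 and 0.13. The called genes with the smallest p were CDC27, lower in both (-0.36 ± 0.08, adjusted p = 0.000153 and -0.42 ± 0.08, adjusted p = 1.26e-05), ANAPC16, higher against HUWE1-P cells (0.45 ± 0.11, adjusted p = 0.00104), and CDC16, higher against HUWE1-WT cells (0.45 ± 0.11, adjusted p = 0.00109). Of 15 genes of cohesin, the ring that holds sister chromatids together, and its regulators, the acetyltransferase gene ESCO1 was the 1 called higher in both comparisons (0.78 ± 0.15, adjusted p = 2.59e-05 and 0.65 ± 0.15, adjusted p = 0.00044), and SGO2, a protector of centromeric cohesin, was the 1 called lower against HUWE1-WT cells (-0.49 ± 0.13, adjusted p = 0.00179). Of 13 other genes of mitotic entry and exit, CCNF, which encodes cyclin F, was lower in both (-0.33 ± 0.10, adjusted p = 0.00842 and -0.38 ± 0.10, adjusted p = 0.00205) and no other was called.

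Genes of the p53 pathway and of the DREAM and MuvB complexes were measured beside the set. CDKN1A was at 159, 156 and 156 CPM in HUWE1-P, 185, 172 and 159.9 in HUWE1-WT and 405, 412 and 421 in HUWE1-CS libraries. CDKN1A was thus higher in all HUWE1-CS libraries than in all controls, by 1.40 ± 0.07, adjusted p = 7.87e-32 against HUWE1-P and 1.26 ± 0.07, adjusted p = 5.97e-29 against HUWE1-WT cells. Of 11 genes of the p53 pathway that act on the G2/M step, CDKN1A among them, 9 and 8 were higher and 0 and 1 lower in the respective comparisons, with medians of 0.59 and 0.56, where 8.46% and 7.42% of all genes were higher. The 1 lower gene was GTSE1 (-0.45 ± 0.12, adjusted p = 0.00173), which is also counted among the other spindle, kinesin and centrosome genes. Of 11 genes of the DREAM and MuvB complexes, LIN54, the MuvB subunit that contacts the CHR, was the called gene with the smallest p among those lower (-0.69 ± 0.17, adjusted p = 0.000736 and -0.68 ± 0.17, adjusted p = 0.00111). RBL2, which encodes the pocket protein p130 of DREAM, was higher against HUWE1-P cells (0.79 ± 0.15, adjusted p = 2.24e-05) and E2F4, its partner, against HUWE1-WT cells (0.36 ± 0.08, adjusted p = 0.000407). The DREAM and MuvB list had 1 lower and 1 higher gene (9.09% each) in the first comparison, close to the 8.58% and 8.46% of all genes, and 2 and 2 in the second, so that its counts are not read as a result. The part of any of these genes in the levels of the 56 was not tested.

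Genes of the G1/S step and of DNA replication, many of which peak earlier in the cycle, were counted as a further set of cell cycle genes. Of 48 such genes, 11 (22.9%) were lower and 1 (2.08%) higher against HUWE1-P cells, beside 8.58% and 8.46% of all genes. Against HUWE1-WT cells 7 (14.6%) were lower and 1 (2.08%) higher, beside 8.08% and 7.42% of all genes. The medians were -0.11 and -0.12. For the mitotic and G2/M genes, 12 and 13 of 56 (21.4% and 23.2%) were lower in the respective comparisons, with medians of -0.18 and -0.20. The difference between the lists was not tested. RRM2, a subunit of ribonucleotide reductase, had the smallest p in both comparisons (-0.65 ± 0.06, adjusted p = 1.07e-14 and -0.66 ± 0.06, adjusted p = 8.07e-15). PCNA, the sliding clamp of the replication fork, was higher against HUWE1-P cells (0.24 ± 0.07, adjusted p = 0.0054), and the ligase gene LIG1 was higher against HUWE1-WT cells (0.42 ± 0.09, adjusted p = 0.000162).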

How the data were processed

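RNA-seq of 3 lines of HCT116 gave 9 libraries, 3 per line, grouped by the labels. After adapter trimming (Skewer) and alignment to hg19 (STAR 2.5.4), the authors deposited counts per gene, without normalization, for 11350 genes. The counting tool, its annotation and its use of strand are not given in the sources used here, so that reads of overlapping genes may be shared. The authors also deposited tables of edgeR 3.26.8 results for the 3 comparisons (log2 fold changes, log2 CPM, F scores, p-values and false discovery rates), which were not used here.

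Counts were analysed with edgeR 4.0.16 in R 4.3.3 (TMM, glmQLFit with legacy=TRUE and robust=FALSE, glmQLFTest, line as the only term, all 9 libraries), with Benjamini-Hochberg adjustment over all genes and a threshold of 0.01. The SE is the log2 fold change divided by the root of F. No gene was filtered, and the smallest total of a gene was 41 counts. CPM are TMM-normalized and means carry the SD of 3 libraries. The common dispersion was 0.00228, and 3 counts correspond to 1.45 to 1.86 CPM. Replicates differed by more than sampling noise in every pair. Scripts were tested on simulated counts. Other tools were DESeq2 1.42.0, limma 3.58.1 and Python 3.11.15. Length and position came from GENCODE on GRCh37 (canonical transcripts, 11003 genes with a length), promoters from RefSeq on GRCh38.p14.

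The 56 genes, the other gene lists, which were typed from general knowledge, and the tests were chosen with earlier results of these data known. Values of every library are given for each gene called in a comparison, for the gene with the smallest p in each role, and for CCNB1, CDK1, FOXM1, MYBL2, WEE1 and FZR1. From each other list the called gene with the smallest p in each direction is named. Further genes of the set with values were named after their values were seen.

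Replicate numbers were checked for pairing. The correlation of deviations from the line means was -0.0272 to 0.0928 in 9 pairs with the same number and -0.109 to 0.0382 in 18 other pairs. These ranges overlap, so the check cannot settle whether libraries with the same number were handled together. The main fit had no replicate block. Alternatives were RLE size factors, total counts, the newer edgeR estimator, a robust fit, DESeq2, limma-voom, a minimum of 10 counts, fits of the compared lines alone, a replicate block, removal of a trend with length, both together, other thresholds, subtraction of 10 neighbouring genes on each side, and omission of each library.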

Additional observations from a re-analysis of the deposited data

How the results depend on the processing

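Against HUWE1-P cells, where 12 genes were called, DESeq2 called 7, an adjusted p of at most 0.05 called 21 (20 lower and 1 higher, CDK1), a minimum absolute log2 fold change of 0.5 called 4, and omission of a library gave 6 to 12. Of all genes, edgeR called 17.0% in either direction, DESeq2 9.59%, the wider threshold 26.4% and the fold limit 10.1%. With a library left out, 12.9% to 17.8% of all genes were called. Against HUWE1-WT cells, where 13 were called, total counts gave 20, DESeq2 7, an adjusted p of at most 0.05 gave 25 (24 lower and 1 higher, TOP2A), a minimum log2 fold change of 0.5 gave 5, and omission of a library 8 to 13. Here the shares of all genes were 15.5% with edgeR, 15.8% with total counts, 8.79% with DESeq2, 24.4% at the wider threshold and 9.37% with the fold limit. They were 12.1% to 15.6% with a library left out. Among the omissions of a library, the fewest calls in both came without HUWE1-CS replicate 1. The median of the 56 genes against HUWE1-P cells was -0.199 to -0.132 with a library left out and -0.124 after subtraction of the neighbouring genes. Against HUWE1-WT cells it was -0.222 with total counts and -0.168 after that subtraction, which also moved the median of HUWE1-WT against HUWE1-P cells from 0.0316 to 0.0063. The cause of these shifts was not tested, apart from the wider or narrower thresholds and fewer libraries. With the replicate block, 12 genes were called against HUWE1-P cells, 17 against HUWE1-WT cells and 0 between the controls. This fit called 17.8% of all genes against HUWE1-P and 16.2% against HUWE1-WT cells. Of the values of called genes under the alternatives, 465 kept their call, 85 lost it and 0 changed sign. This tally includes the threshold of 0.05, which keeps every call by construction. It also includes omissions of libraries from the line not compared, which enter a comparison only through the shared fit. Depth limits the set most at CDC25C and CENPA, whose log2 fold changes against HUWE1-P cells had an SE of 0.26 and 0.20, against 0.07 for MKI67.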
